A study of Mus musculus with 6 samples.

Results

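Pericytes and vascular smooth muscle cells, together called mural cells, were examined in 6 single-cell RNA-seq libraries of sorted mouse dorsal skin cells. A cell counted as mural when it had a UMI (unique molecular identifier, 1 captured transcript) of at least 4 of 8 genes, Acta2, Rgs5, Rgs4, Pdgfrb, Des, Notch3, Myh11 and Ndufa4l2, and 0 UMIs of the leukocyte gene Ptprc, among cells with 200 to 5000 genes and under 10% mitochondrial UMIs. The members were therefore chosen on measured values, and their high levels of these 8 genes are a description and not a result. The rule found 509 mural cells among 20941 kept cells (2.43%) and 27418 barcodes. Of these, 216 had no UMI of the endothelial adhesion gene Pecam1 and 293 had at least 1 (57.6%), and the groups are called Pecam1-negative and Pecam1-positive mural cells below.

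Mural cells wrap the outside of blood vessels. Vascular smooth muscle cells ring arterioles, arteries and veins and contract through smooth muscle actin and myosin, whereas pericytes lie on capillaries and post-capillary venules inside the basement membrane that they share with the endothelium. Endothelial PDGF-B holds them on the vessel through PDGFRB, Notch ligands of the endothelium act on NOTCH3 in mural cells, and TGF-beta family signalling, including the endothelial receptor ALK1, takes part in vessel maturation. In skin they line the dermal plexuses and the capillaries around hair follicles, which cycle between rest (telogen) and growth (anagen).

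Each library came from 1 mouse, with 2 mice in each group. WT telogen mice (postnatal day 20) and WT anagen mice (day 32) were tdTomato;Cdh5-CreERT2;Krt14-H2BGFP animals on a C57BL/6;CD1 background. Alk1 KO telogen mice (day 25) carried Alk1 flox/flox;tdTomato;Cdh5-CreERT2 on C57BL/6 and no Krt14-H2BGFP. All 6 received 200 µg/g tamoxifen on day 17, so Cre, the tdTomato reporter and tamoxifen were common to all groups, and the sort took tdTomato+ cells. The paper describes the WT cells as also negative for Krt14-H2BGFP, a gate that did not apply to KO mice without this transgene. The Cre is driven by an endothelial promoter, so the mural cells here are those that passed a sort meant for the endothelial lineage and not a sample of all mural cells of the skin. The KO and WT telogen groups differed in age, strain, the Krt14-H2BGFP transgene and its sort gate as well as in Alk1, and these cannot be told apart. The genotype field of the KO samples reads wild type while their titles and descriptions read Alk1KO, and the titles were followed. Total UMIs were 32626434 and 43317677 in the telogen libraries, 35035677 and 29851591 in the anagen libraries and 10615358 and 11239445 in the KO libraries, in the order S1 and S2 used throughout.

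Xist, transcribed from the inactive X chromosome, read 1044 CPM in Pecam1-negative mural cells of telogen S1, 871 CPM in KO S1 and 874 CPM in KO S2, and 0 in the other 3 libraries. Ddx3y, a Y-linked helicase, was found at 154 CPM in telogen S2, 104 CPM in anagen S1 and 122 CPM in anagen S2 and at 0 in the rest. By these genes the telogen libraries were 1 female and 1 male, both anagen libraries male and both KO libraries female, so sex and group cannot be fully told apart. Libraries shared 2 to 13 barcodes pairwise, and no barcode was a mural cell in more than 1 library.

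Promoters of a contractile and a chemokine gene that recur below show the sequence in which 2 motifs were searched. Each is the 250 bases before the annotated start in RefSeq (GRCm38.p6), on the plus strand. Myl9, the regulatory light chain of smooth muscle myosin, lies at chr2:156775214-156775463, and the capitals mark a CArG box, the motif of serum response factor, 161 to 152 bases before the start. Cxcl2, a neutrophil-attracting chemokine, lies at chr5:90903649-90903898, and the capitals mark a kappaB consensus 97 to 87 bases before the start, where matches on both strands overlap.
Myl9: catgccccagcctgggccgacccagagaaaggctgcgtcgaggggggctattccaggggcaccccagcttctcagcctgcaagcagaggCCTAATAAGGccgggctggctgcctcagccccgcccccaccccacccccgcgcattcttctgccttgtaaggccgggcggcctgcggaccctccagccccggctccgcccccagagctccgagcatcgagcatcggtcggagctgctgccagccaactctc
Cxcl2: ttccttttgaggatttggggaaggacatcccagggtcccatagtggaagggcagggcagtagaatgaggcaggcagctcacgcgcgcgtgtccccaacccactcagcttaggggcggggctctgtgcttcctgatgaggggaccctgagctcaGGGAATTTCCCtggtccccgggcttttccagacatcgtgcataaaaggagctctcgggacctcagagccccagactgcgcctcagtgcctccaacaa
The CArG box was found on either strand in 482 of 32851 promoters of that length (1.47%) and in 5 of 33 promoters of the contractile genes listed here, those of Myl9, Myl6, Ldb3 and Srf. The kappaB consensus was found in 1281 promoters (3.90%) and in 7 of 22 promoters of the chemokine and cytokine list, those of Csf1, Il6, Cxcl1, Cxcl2, Cxcl10, Tnfaip3 and Nfkbia. A match describes letters in this window and not an occupied site.

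In Pecam1-negative cells the levels of the rule's own genes were 6666 ± 2850 CPM for Acta2, 3553 ± 630 for Rgs5, 1324 ± 667 for Myh11, 887 ± 317 for Ndufa4l2, 426 ± 56.2 for Des, 390 ± 76.8 for Notch3, 376 ± 130 for Pdgfrb and 245 ± 77.5 for Rgs4 (mean ± SD, n = 6 libraries; CPM is the UMIs of a gene in 1000000 UMIs summed over the cells of a library). Rgs5, a regulator of G-protein signalling, lay between 2815 and 4454 CPM over the 6 libraries, whereas Acta2, smooth muscle alpha-actin, ranged from 2697 CPM in KO S2 to 10767 CPM in anagen S2. Myh11, smooth muscle myosin heavy chain, ranged from 661 CPM in anagen S1 to 2493 CPM in KO S1.

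Of 2854 genes found in at least 25% of Pecam1-negative mural cells, ribosomal and mitochondrial genes left out, the odorant receptor Olfr558 had the highest ratio to all other kept cells without Ptprc, 150 CPM against 0.098 CPM, and a UMI in 41.7% of the cells. Map3k7cl, Myh11, Rergl, Lmod1 (leiomodin, an actin filament nucleator), Avpr1a (a vasopressin receptor), Pln (phospholamban, which restrains the calcium pump of the sarcoplasmic reticulum), Rgs4 and Acta2 followed, and Myocd, the coactivator of smooth muscle genes, reached 60.4 CPM against 0.21 CPM. The next were Notch3, Ano1 (a calcium-activated chloride channel), Nrip2, Rgs5, Jph2 (which ties the sarcoplasmic reticulum to the plasma membrane), Higd1b, Lin7a, Tesc, Cox4i2 and S1pr3 (a sphingosine 1-phosphate receptor). S1pr3 stood at 314 CPM in mural cells, 0.195 CPM in endothelial cells and 5.33 CPM in fibroblast-like cells. These are levels of cells chosen for mural genes, so no test was made.

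Cells were thinned to 1500 UMIs to compare shares of cells with a UMI. Tagln, which binds actin in smooth muscle and is not in the rule, was found in 71.8% of Pecam1-negative mural cells, in 37.2% of Pecam1-positive mural cells, in 9.28% of endothelial cells and in 2.82% of fibroblast-like cells. The pericyte gene Higd1b was found in 13.4%, 15.7%, 0.0351% and 0% of the same cells, and Kcnj8, the pore of a vascular potassium channel, in 11.5%, 19.8%, 0.114% and 0.565%. Thinning left out 7 Pecam1-negative cells and 0 Pecam1-positive cells. Endothelial cells here are 11939 kept cells with at least 4 of 9 endothelial genes and under 2 of the rule's genes.

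**Figure D1:**
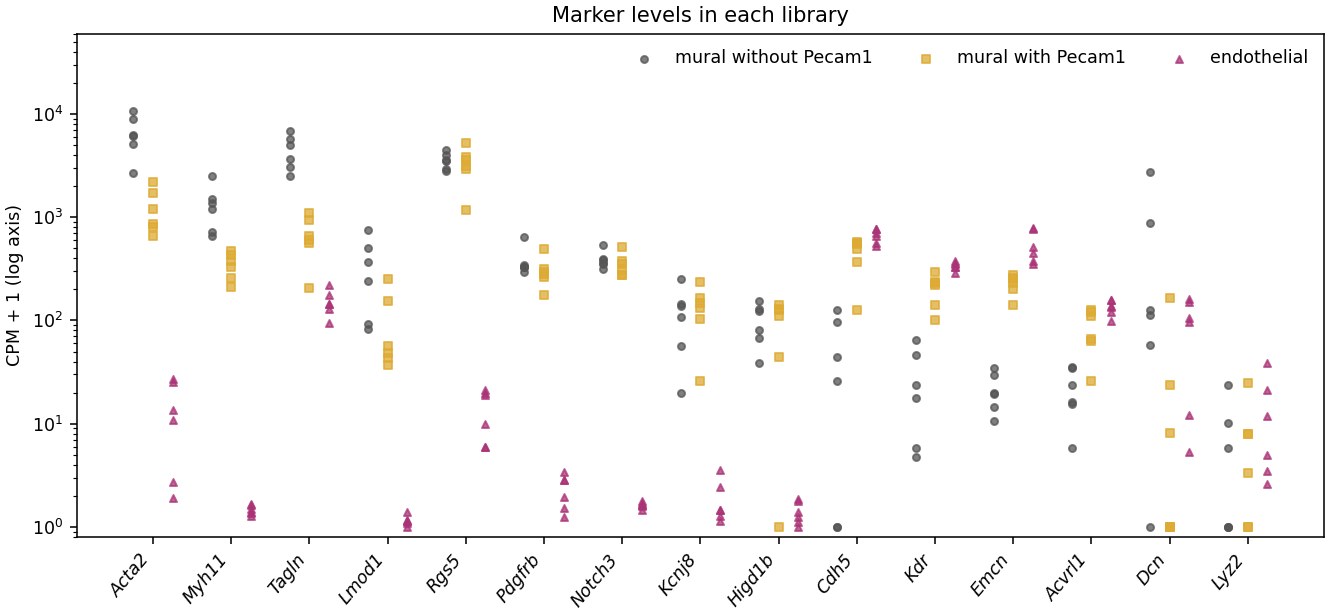
Levels of 15 marker genes in each library, as CPM plus 1 on a log axis, for Pecam1-negative mural cells (circles), Pecam1-positive mural cells (squares) and endothelial cells (triangles); each point is 1 of the 6 libraries. Mural and endothelial cells were chosen on some of these genes, so their separation is a description. Rgs5, a gene of the rule, is alike in both mural groups and Tagln is higher without Pecam1.

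Endothelial genes divided the 2 mural groups, as the split on Pecam1 would lead to. The summed level of 15 endothelial markers was 1413, 737, 1395, 497, 379 and 1101 CPM in Pecam1-negative cells in the order telogen, anagen, KO, with Esam (256 CPM) the most abundant and Pecam1 at 0 by the rule. In Pecam1-positive cells it was 7135, 6986, 7546, 7361, 6162 and 5991 CPM, and in endothelial cells it lay between 9894 and 11986 CPM. Pecam1-positive mural cells thus carried most of the level of an endothelial cell on top of mural genes, in every library. At 1500 UMIs, Cdh5 (VE-cadherin) was found in 51.5% of Pecam1-positive and 4.31% of Pecam1-negative mural cells, against 58.7% of endothelial and 8.85% of fibroblast-like cells. A low share in Pecam1-negative cells follows in part from their choice by 0 UMIs of another endothelial gene, and fibroblast-like cells, which should lack Cdh5, were not chosen that way. Prox1, the lymphatic regulator, was found in 0% and 0.683% of the mural groups and in 17.9% of endothelial cells.

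Pecam1-positive cells also held more UMIs. Their median was 10848 and 8317.5 UMIs in telogen, 11910 and 7046.5 in anagen and 8540 and 12760 in the KO, and that of Pecam1-negative cells was 7518, 7442, 9033, 5756, 4669.5 and 3390. The ratio was 1.12 at the lowest (telogen S2) and 3.76 at the highest (KO S2). Scrublet, which scores likely doublets, marked under 0.5% of cells in 4 libraries and was then used as its top 5%. It removed 12 Pecam1-negative and 42 Pecam1-positive cells. Doublets of a mural and an endothelial cell, fragments of vessel wall and single cells with both programmes cannot be told apart here.

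The 2 mural groups differed in contractile genes more than in pericyte genes. Summed over 30 contractile genes, libraries read 16617 to 38854 CPM in Pecam1-negative and 5493 to 10612 CPM in Pecam1-positive cells. For 25 pericyte genes the ranges overlapped, at 3522 to 4951 and 2263 to 4344 CPM. Tagln averaged 4462 CPM in Pecam1-negative and 676 CPM in Pecam1-positive cells, Myl9 2284 and 579 CPM, Tpm2 (beta-tropomyosin) 3091 and 655 CPM and Cnn1 (calponin) 58.6 and 4.47 CPM. Kcnj8 averaged 118 and 134 CPM, Abcc9 (the regulatory subunit of the same potassium channel) 121 and 193 CPM, Higd1b 97.8 and 91.0 CPM and Vtn (vitronectin) 220 and 200 CPM. The pericyte gene Cspg4 was not alike. In pooled cells with 5 to 8 markers it read 117 CPM without and 44.6 CPM with Pecam1. Rgs5 averaged 3553 and 3300 CPM, but it belongs to the rule that chose both groups and is only a description. Fabp4, a fatty acid binding protein abundant in skin capillary endothelium, averaged 3844, 9382 and 8016 CPM in Pecam1-negative, Pecam1-positive and endothelial cells.

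Within the Pecam1-negative cells, contractile and pericyte genes varied from cell to cell. The 7 smooth muscle genes outside the rule (Tagln, Cnn1, Lmod1, Smtn, Mylk, Actg2 and Synpo2) had a median of 7 UMIs per 1500 UMIs over 209 cells and a maximum of 45. Of the 126 cells with 5 or more (60.3%), 53 (42.1%) had a UMI of the pericyte genes Kcnj8, Abcc9, Higd1b, Cspg4, Vtn, Cox4i2 and Steap4, against 56 of the 83 cells with fewer (67.5%). The share was lower in the former in 6 of 6 libraries, which was not tested. A fixed total of UMIs lowers the count of other genes as that of Tagln rises, and its part in this was not tested. The correlation of the log counts was −0.36 over cells and negative in each library (−0.51 to −0.25). There was no gap between the classes, and 20 cells had 4 or 5 smooth muscle UMIs. The share with 5 or more was 40.9% and 62.7% in telogen, 47.8% and 81.3% in anagen and 66.0% and 43.5% in the KO, so the groups overlapped. Of 293 Pecam1-positive cells, 35 (11.9%) had 5 or more, and their median was 1 UMI. The correlation of the log counts there was −0.19 over cells and −0.06 in telogen S1, where 7 of the 8 cells with 5 or more had a pericyte UMI (87.5%), against 73.0% of the rest.

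**Figure D2:**
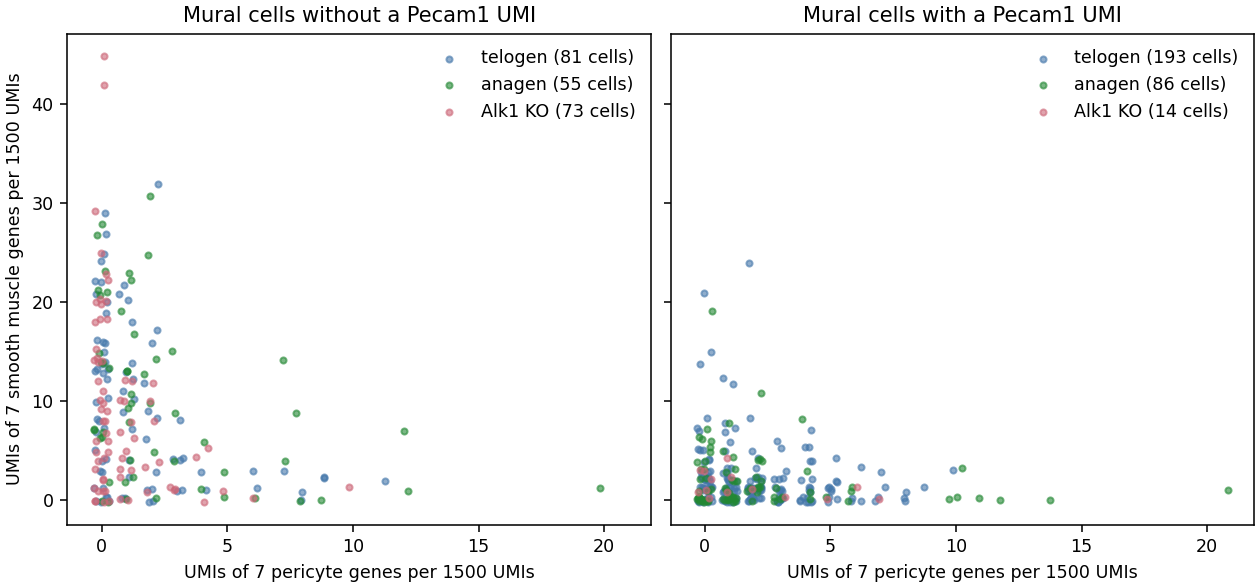
UMIs of 7 smooth muscle genes (vertical) and of 7 pericyte genes (horizontal) in single mural cells thinned to 1500 UMIs, without (left, 209 cells) and with (right, 293 cells) a Pecam1 UMI; each point is 1 cell with small jitter and colours are the 3 groups. Without Pecam1, the highest smooth muscle counts sit at low pericyte counts and intermediate cells lie between, and few Pecam1-positive cells (35 of 293) reach 5 smooth muscle UMIs.

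Myh11 split the Pecam1-negative cells into 187 with and 29 without a UMI. In the 4 libraries with at least 5 cells of each, genes were ranked by their ratio among those found in at least 25% of either kind and in the same order in all 4. Highest with Myh11 were Sorbs2, Rergl, Rgs7bp, Pln, Itga8 (the alpha-8 integrin of smooth muscle), Fbxl22, Dgkb, Itpk1, 9530034E10Rik, Slc6a17, Inhba (an activin subunit), Cap2, Atp10a, Myocd and Spint2, each with 0 UMIs in the cells without Myh11. Sorbs2 was found in 57.0% of the cells with Myh11. Lowest with Myh11 were Cyp2d22, Cyyr1, Fli1, Nrp2, Il15ra, Colgalt2, Ednrb, Itga6, Lamb1, St7, Znrf1, Lrrc8d, Vamp5, Il4ra and Arfgap1. Ednrb, an endothelin receptor, averaged 61.8 CPM with and 538 CPM without Myh11. Nothing was tested because Myh11 belongs to the rule, and the depth of the cells was not matched.

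Among Pecam1-positive cells, 171 had and 122 lacked a Myh11 UMI, and genes were ranked in the same way over the 3 libraries that had 5 cells of each. Slc6a17, Sox6, Map3k7cl, Pi15 and Nrip2 led the higher genes, and Acta2 was 1887 CPM with and 198 CPM without Myh11. Gm14964, Chst2 and Tmem86a led the lower genes, which included the pericyte genes Steap4 (106 and 363 CPM) and Kcnj8 (80.3 and 224 CPM) and Agtr1a (44.0 and 126 CPM), an angiotensin receptor.

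At the edge of the rule lay 85 kept cells without Ptprc that had 3 markers and 56 that had 4, against 453 with 5 to 8. Without Pecam1, the cells with 3, 4 and 5 to 8 markers (41, 28 and 188) had 161, 1665 and 3782 CPM of Rgs5, 1716, 3529 and 7773 CPM of Acta2 and 9207, 5686 and 138 CPM of the fibroblast proteoglycan Dcn. Dcn was therefore far higher in cells with 3 or 4 markers than in the rest. Of the Pecam1-negative cells, 5 (3 in telogen S2 and 2 in anagen S1) had at least 5 of 7 fibroblast markers. Summed over 11 fibroblast markers, Pecam1-negative cells read 1561, 6673, 22071, 1665, 314 and 252 CPM with these cells and 1561, 1455, 1032, 1665, 314 and 252 CPM without them. The defining fibroblast gene Pdgfra was found in 0.957% of Pecam1-negative cells at 1500 UMIs, against 22.6% of fibroblast-like cells. Immune markers summed to 90.8, 127, 45.3, 19.5, 0 and 0 CPM.

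The first comparison asked how many sorted cells were mural in each group. They made up 3.75% and 3.32% of kept cells in telogen, 2.16% and 0.979% in anagen and 3.33% and 1.74% in the KO. Anagen lay below telogen in both mice, by 1.97 percentage points (exact two-sided permutation p = 0.333, the smallest that 2 mice against 2 allow), and the KO differed from telogen by −1.01 points with overlapping values (exact permutation p = 0.667). For Pecam1-negative mural cells alone the sign was the reverse, at 0.694% and 1.28% of kept cells in telogen and 3.04% and 1.28% in the KO (1.17 points, overlapping, exact permutation p = 0.667). Shares are relative to the other sorted cells. Endothelial cells were 34.1% and 23.9% of kept cells in telogen, 74.5% and 75.6% in anagen and 74.4% and 71.4% in the KO, and immune cells 27.0% and 39.0%, 5.86% and 1.49%, and 2.74% and 4.65%. Among cells without Ptprc, the KO libraries (3.43% and 1.84%) lay below both telogen libraries (5.23% and 5.59%).

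The Pecam1-positive share of mural cells differed more. It was 81.5% (95% exact interval 73.4 to 88.0) and 61.5% (53.4 to 69.2) in telogen, 75.3% (65.2 to 83.6) and 32.0% (19.5 to 46.7) in anagen and 8.77% (2.91 to 19.3) and 26.5% (12.9 to 44.4) in the KO. Both KO libraries lay below both telogen libraries, with means of 17.6% ± 12.5 and 71.5% ± 14.1 (SD, n = 2 mice each; exact permutation p = 0.333, the smallest possible). The anagen libraries differed from each other by more than the groups did (p = 0.667 by the same exact test). Intervals cover counting error only. The numbers behind these shares were 22 and 97, 60 and 96, 23 and 70, 34 and 16, 52 and 5, and 25 and 9 Pecam1-negative and Pecam1-positive cells. The share of all kept cells with a Pecam1 UMI was 40.8% and 31.1% in telogen and 71.4% and 69.9% in the KO, which is the opposite order. Depth per Pecam1-negative cell was lowest in the KO. With the rule's own markers counted at 1500 UMIs per cell, the share was 74.6% and 54.1% in telogen and 9.76% and 18.2% in the KO. Pecam1 was still counted at full depth there, so its detection was not matched for depth. The part of depth in this share was not tested.

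**Figure D3:**
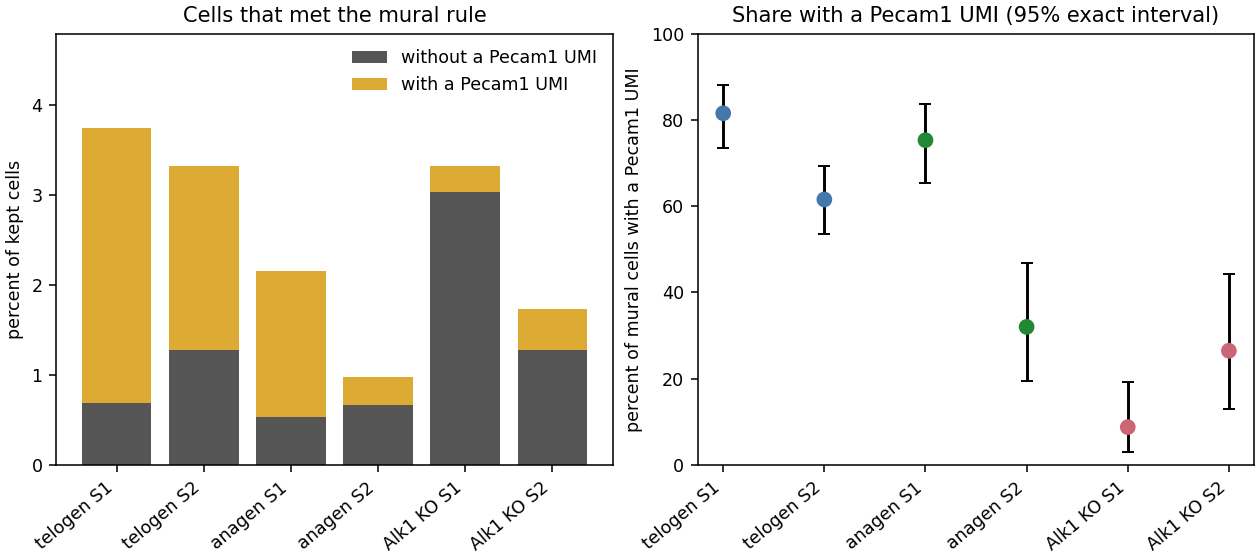
Left, percent of kept cells in each library that met the mural rule, stacked as without and with a Pecam1 UMI; right, percent of mural cells with a Pecam1 UMI with its 95% exact binomial interval, coloured by group. Pecam1-positive cells dominate in both telogen libraries (81.5% and 61.5%) and are few in both KO libraries (8.77% and 26.5%).

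The second comparison asked what differed in Pecam1-negative mural cells between Alk1 KO and WT telogen skin, from 77 and 82 cells summed per mouse. Of the listed genes tested, 14 of 27 interstitial and elastic matrix genes, 5 of 14 chemokine and cytokine genes, 5 of 10 interferon-responsive genes and 27 of 78 oxidative phosphorylation genes fell in the KO, and Gucy1a1, a subunit of the nitric oxide receptor, and Kitl, the stem cell factor gene, rose. Of 3571 genes tested by edgeR, 418 were called (11.7%), that is, the adjusted p was below 0.05 and the fold change above 1.3. Of these, 209 were higher (5.85%) and 209 lower, and the median log2 fold change of all genes was 0.01. The libraries of the 2 groups did not overlap for any of the 418 after TMM scaling. The share without overlap over all genes tested is not given, so this describes the calls and adds no support to them. The call count was 194 without KO S1 and 277 without telogen S2, and it was 58 under a stricter cell filter (500 genes or more, mitochondrial share below 5%). Of the values of named genes, 45 lost their call without KO S1, 11 without KO S2, 29 without telogen S1 and 34 without telogen S2, and 0 changed sign. Ribosomal protein genes gave 18 of the calls, mitochondrial genes 3 and sex-linked genes 0.

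Acvrl1, which encodes ALK1, was too low in Pecam1-negative mural cells to be tested, at 34.1 and 14.4 CPM in telogen and 15.2 and 33.6 CPM in the KO. In endothelial cells of the same libraries it read 156 and 133 CPM against 120 and 98.8 CPM, a log2 fold change of −0.44 (adjusted p = 0.0465). The deleted exons are not given in the sources used here, so a 3′ tag may check nothing about the deletion.

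The largest rises were of genes near 0 in telogen. Slc15a2, a peptide transporter, was at 0 and 0 CPM in telogen and at 60.6 and 176 CPM in the KO, at least 21.4-fold higher against a floor of 3 UMIs over the telogen group. Klf15, a zinc finger factor induced by glucocorticoids, was at 0 and 2.05 CPM against 110 and 50.4 CPM (log2 fold change 5.42, SE 0.84, adjusted p = 0.00904). Tbx3os1, an RNA transcribed opposite Tbx3, was at 5.68 and 20.5 CPM against 284 and 260 CPM (4.01, SE 0.46). The KO libraries of these 3 genes lay far above both telogen libraries, and a lack of overlap was a condition of their choice. Slc25a27 (4.93), Fxyd7 (4.63), Galnt15 (4.38), Kcnt1 (4.18), Grap (4.18), Dmp1 (4.15) and Rbl2 (3.50) completed the 10 by log2 fold change. Ribosomal protein genes were left out of this ranking, in which Rps27 (3.83) would precede Rbl2. Without telogen S2 the remaining telogen library held 0 UMIs of Dmp1, Grap and Rbl2, and their fitted values of 7.41, 6.57 (no longer called) and 7.07 then depend on the prior count. Klf15, Slc25a27 and Fxyd7 had 0 UMIs in telogen S1 and 1 in telogen S2, and Grap 0 and 2, fewer than the floor of 3. Their fitted values therefore give no size, and leaving out 1 library moved Klf15 up to 6.97 and Slc25a27 up to 6.48. Kcnt1, a sodium-activated potassium channel, had a UMI in 39.0% of KO and 6.10% of telogen cells. Klf15 also rose in endothelial cells of the KO (4.46), as did Slc15a2, so these rises were not confined to mural cells.

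The 10 largest falls included 3 fibrillar collagen genes and the chemokine gene Cxcl2. Rbp7, a retinol-binding protein of capillary endothelium, was at 193 and 57.5 CPM in telogen and at 0 and 0 CPM in the KO, at least 11.9-fold lower by the same floor. Cxcl2 was at 743 and 694 CPM against 15.2 and 25.2 CPM (log2 fold change −5.29, SE 0.38, adjusted p = 0.000327), although 52.2% of its telogen UMIs came from 1 cell. Col3a1, a fibrillar collagen, was at 2071 and 3752 CPM against 125 and 101 CPM (−4.71, SE 0.36, adjusted p = 0.000327). Both KO libraries lay below both telogen libraries in each case, which the choice of these genes required. Postn (periostin, −5.14), Col1a2 (−4.61), Psmb10 (an immunoproteasome subunit, −4.61), Col1a1 (−4.61), Dpt (dermatopontin, −4.44), Ptx3 (a pentraxin, −4.30) and Ifi204 (−4.21) completed the list of falls. Psmb10 was found in 45.1% of telogen cells and in 1 of 77 KO cells, whereas Ptx3 rested on few cells, with 62.3% of its telogen UMIs in 1. With 1 KO library at 0 UMIs, the fitted values depend on the prior count when the other is left out, at −7.97 for Dpt and −8.39 for Ptx3 (no longer called) without KO S1 and at −7.53 for Psmb10 and −7.13 for Ifi204 without KO S2. Ifi204 was at −2.80 and not called without KO S1.

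**Figure D4:**
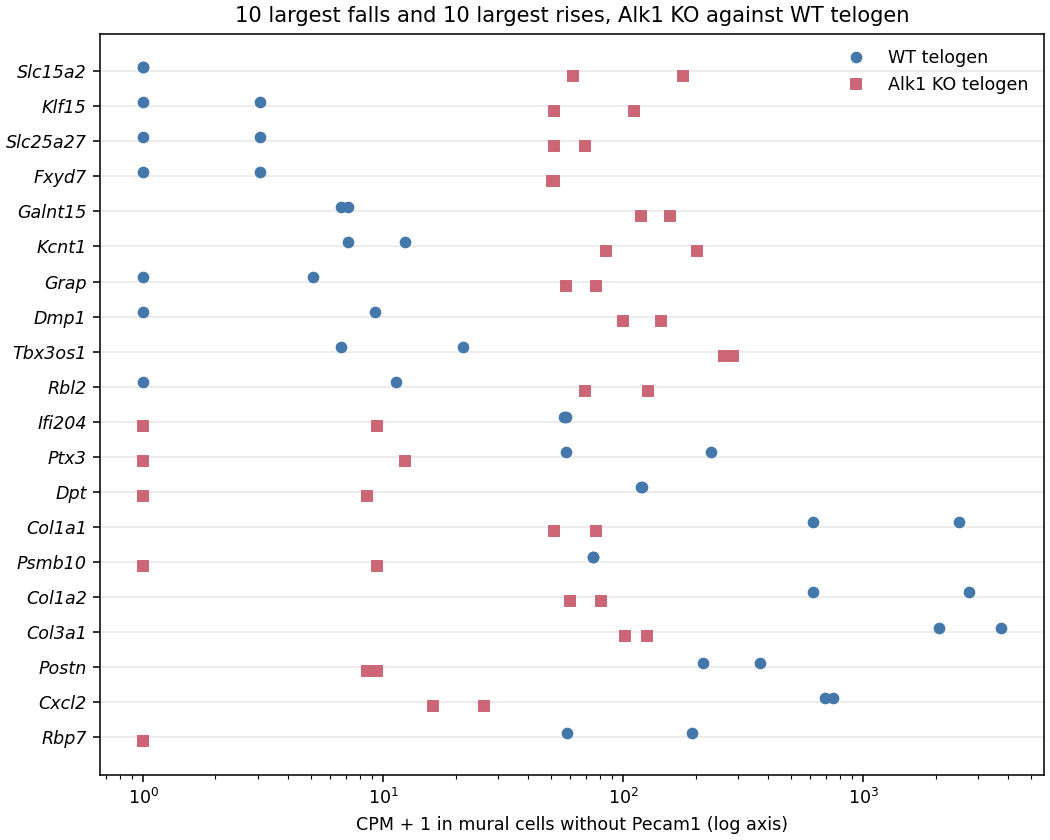
The 10 largest rises (ribosomal protein genes left out) and 10 largest falls among genes called in Pecam1-negative mural cells, as CPM plus 1 on a log axis, for the 2 WT telogen (circles) and 2 Alk1 KO telogen (squares) libraries. The 20 were chosen among genes whose libraries do not overlap between the groups, so that separation is a description. Most rising genes sit at or near 0 in telogen.

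Contractile genes stayed near the median of all genes. Of 28 contractile genes tested, Lmod1 (90.8 and 238 CPM against 743 and 504 CPM, log2 fold change 1.80, SE 0.41, adjusted p = 0.0227) and Mustn1 (437 and 718 CPM against 1879 and 1311 CPM, 1.40, SE 0.31, adjusted p = 0.0214) rose, none fell, and the list median was 0.04. Leaving out 1 library moved Lmod1 between 1.29 and 2.68. Tagln, the most abundant, had a log2 fold change of −0.36 and did not pass. The 2 KO libraries differed in this list, since Myl9 and Tagln were lower in KO S2 (958 and 2487 CPM) than in KO S1 (2307 and 5027 CPM). Acta2, a gene of the rule and not of this list, was at 2697 CPM in KO S2 and 6145 CPM in KO S1. Leaving out KO S1 gave 0 rises and 5 falls with a median of −0.62, and leaving out KO S2 gave 6 rises and 0 falls with a median of 0.40. Without telogen S1 there were 0 rises and 3 falls, and without telogen S2 5 rises and 0 falls.

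Of 21 pericyte genes tested, Gjc1 (connexin 45, 1.31) and Aspn (asporin, 0.90) rose and Postn and Thy1 (−3.58) fell, with a median of −0.28. Thy1, a surface glycoprotein, went from 153 and 113 CPM to 3.79 and 25.2 CPM, and leaving out 1 library moved its value between −4.99 and −2.48. In endothelial cells Thy1 read 91.9 and 96.2 CPM against 64.8 and 94.3 CPM. Of 12 ion channel and calcium genes, Kcna5, a voltage-gated potassium channel of smooth muscle, rose (2.16, and 3.70 without telogen S2), and the list median was 0.49.

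Receptors that set vessel tone gave 4 calls among 11 genes tested. Gucy1a1, a subunit of the nitric oxide receptor guanylate cyclase, was at 363 and 369 CPM in telogen and at 902 and 974 CPM in the KO (log2 fold change 1.29, SE 0.25, adjusted p = 0.0141). Npy1r, a neuropeptide Y receptor (1.43, and 2.15 without telogen S2), and Ednra, the endothelin A receptor (1.20), also rose, and Avpr1a fell (−2.03). The list median was 0.59. Of 5 Notch pathway genes tested, the targets Hey2 (1.94, adjusted p = 0.0273) and Hes1 (1.07, adjusted p = 0.0496) rose, and DESeq2 called 0 of the 5. Jag1, a Notch ligand, had 153 and 98.5 CPM in telogen and 261 and 286 CPM in the KO and did not pass (adjusted p = 0.0554).

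Of 8 PDGF, angiopoietin and VEGF genes tested, Angpt2, the angiopoietin that opposes TIE2 signalling, fell from 119 and 78.0 CPM to 30.3 and 8.40 CPM (−2.08, SE 0.59, adjusted p = 0.0489). Without KO S1 it was at −3.56 and not called. Of 18 TGF-beta, BMP and ALK1 pathway genes, Fstl1, a follistatin-like protein, fell (−1.26) and 17 did not pass, with a median of 0.26. The BMP target Id1 had 431 and 254 CPM in telogen and 735 and 420 CPM in the KO, and Id3 1771 and 926 against 2489 and 1957 CPM. Neither was called.

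Of 27 interstitial and elastic matrix genes tested, 14 fell and Ccn1 rose (1.06), with a median log2 fold change of −1.81. The falls included Col6a3 (−3.73), Col12a1 (−3.17), Serpinh1 (the collagen chaperone, −2.54, 789 and 786 CPM against 144 and 134 CPM), Eln (elastin, −2.41), Timp1 (−2.89) and Loxl2 (−2.51). Of 17 basement membrane and integrin genes, Col4a1 (−1.69), Col4a2 (−1.20), Col18a1 (−1.64) and Sparc (−1.70, 5794 and 5959 CPM against 1845 and 1932 CPM) fell and Sparcl1 rose (1.13, 2264 and 3081 CPM against 6808 and 5360 CPM). Without KO S1, Eln was at −3.68 and Col18a1 at −2.91. Leaving out 1 library moved Col6a3 between −5.36 and −3.30, Col1a1 between −5.35 and −3.30 and Col1a2 between −5.38 and −3.20. Fibroblast markers moved with the matrix list: of 6 tested, Col1a1, Col1a2, Dpt and Ly6a (−3.80, and −4.82 to −2.88 without 1 library) fell and 0 rose. Col1a1, Col1a2 and Dcn belong to both lists, so the 2 lists are not independent. Fibroblast-like cells were 3.82% and 3.99% of kept cells in telogen and 1.75% and 1.99% in the KO, and Col3a1 in endothelial cells was 125 and 114 CPM in telogen and 1.45 and 0.647 CPM in the KO. Without the 5 cells of many fibroblast markers, 10 of 25 matrix genes fell and the median was −1.16, and Col1a1 (−3.25) and Col3a1 (−3.78) were still called. The part of free fibroblast RNA in these falls was not tested.

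Of 14 chemokine, cytokine and adhesion genes tested, Cxcl2, Ptx3, Ccl2, Ccl7 (−3.09) and Cxcl12 (−2.23) fell and Kitl rose, with a median of −2.16. Ccl2, the monocyte-attracting chemokine, went from 5511 and 1964 CPM to 337 and 168 CPM (−3.89, SE 0.51, adjusted p = 0.0069), and a UMI of it was found in 43.9% of telogen and 3.90% of KO cells. Leaving out 1 library moved Ccl2 between −4.61 and −3.02, and 1 cell held 81.7% of its KO UMIs. For Ccl7, 1 cell held 63.6% of the telogen UMIs. Kitl went from 187 and 333 CPM to 909 and 1193 CPM (1.91, SE 0.32, adjusted p = 0.0101). Of 10 interferon-responsive genes, Ifi27 (−2.42), Gbp2 (−2.29), Bst2 (−1.78), Isg15 (−1.38) and Ifitm3 (−1.26) fell and Irf1, an interferon regulatory factor, rose (0.95). Without KO S1 the remaining KO library held 0 UMIs of Ccl7 and Gbp2, and their fitted values of −10.14 and −8.13 depend on the prior count. Immune cells and immune markers were also fewer in the KO libraries, as given above, and their part in this was not tested.

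Of 78 oxidative phosphorylation genes tested, 27 fell and Ndufa6 and Cox7a2l rose, with a median of −0.91 and 73 of 78 values below 0. Atp5g1, a subunit of the ATP synthase ring, went from 346 and 413 CPM to 72.0 and 101 CPM (−2.25, SE 0.31, adjusted p = 0.00791), and Ndufa4, a cytochrome c oxidase subunit, fell by 1.91 (by 3.22 without KO S1). Of 77 cytosolic ribosomal protein genes, 16 rose and 0 fell, with a median of 0.38. Rps27 (3.83) and Rps27rt (3.32) led, and these near-identical copies share reads, so their split is uncertain. The KO mural cells were shallower than the telogen ones, at medians of 4669.5 and 3390 against 7518 and 7442 UMIs, and their median mitochondrial share was lower, at 5.57% and 4.16% against 6.38% and 7.06%. The part of the mitochondrial share in these changes was not tested. With equal numbers of cells and UMIs per library 2 of 38 oxidative phosphorylation genes fell and 1 rose (median −0.72). In that setting 29 of all 571 genes tested fell and 32 rose (median −0.04), so the share of falls in the list was near that of all genes. With the stricter cell filter, 1 of 60 fell, where 58 of all 1411 genes tested were called.

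Immediate-early and heat-shock genes, which respond to dissociation, gave 1 rise (Hspb1, 0.98) among 30 with a median of 0.10. Ndrg1, a hypoxia-responsive gene, rose (2.11) as the only call among 10 glycolysis and hypoxia genes, and 0 of 6 clock genes, 0 of 2 cell cycle genes, 0 of 5 endothelial markers, 0 of 2 arrector pili and dermal sheath genes and 0 of 1 adipocyte marker were called. None of the lymphatic, immune, perineurial, Schwann cell, keratinocyte, skeletal muscle or erythrocyte markers passed the filter on low counts.

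**Figure D5:**
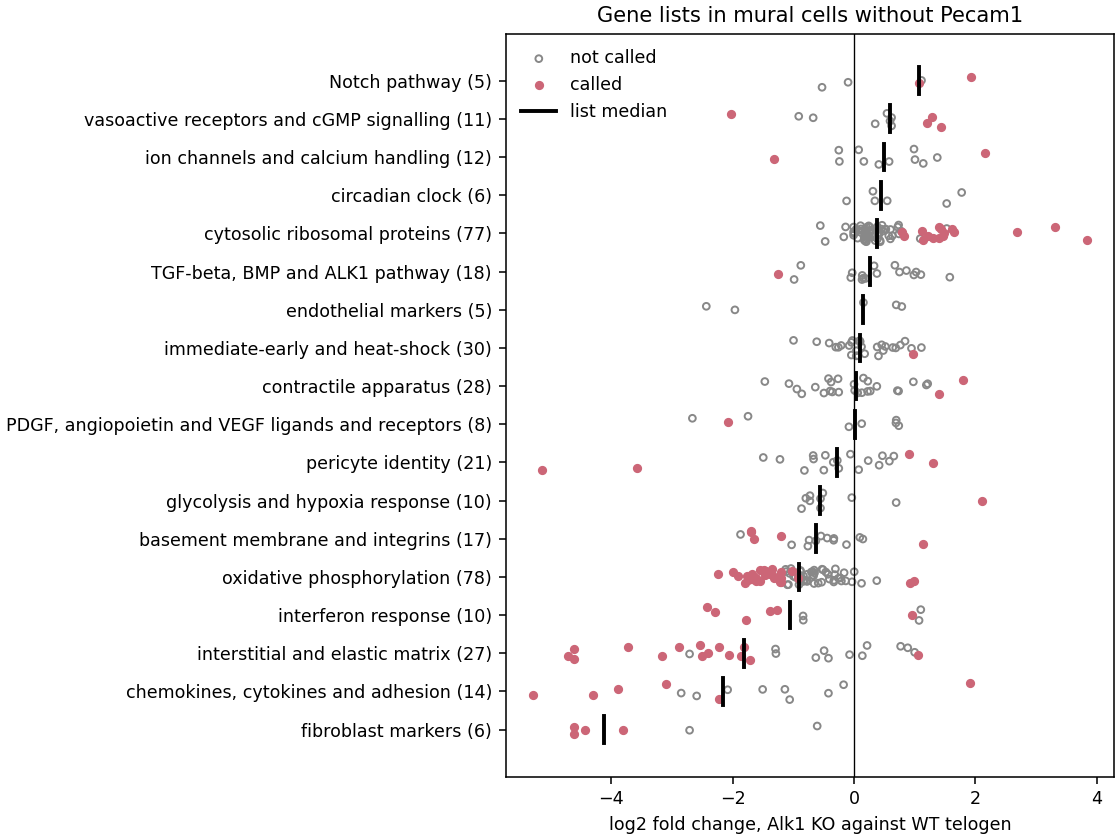
Log2 fold changes between Alk1 KO and WT telogen Pecam1-negative mural cells for the genes of 18 lists with at least 5 genes tested (number in parentheses); filled points were called, open points were not, and bars are list medians. The medians of the Notch and vasoactive lists lie to the right of 0 and those of the oxidative phosphorylation, matrix, chemokine and fibroblast lists to the left, with members on both sides in all of these but the fibroblast list.

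In endothelial cells of the same 4 libraries, 4133 of 12787 genes were called between the KO and telogen. Lymphatic markers moved with the groups in these endothelial cells, summing to 1016 and 943 CPM in telogen, 355 and 240 CPM in anagen and 2402 and 2773 CPM in the KO, and their part in the endothelial changes was not tested. The difference between the mural and the endothelial change was tested with library as a term. It was called for 215 of 12440 genes by edgeR (1.73%) and for 51 by DESeq2. Of the 215, 101 lay above and 114 below the endothelial change. The count was 98 without telogen S1 and 110 without telogen S2.

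Of the 418 mural calls, 84 (20.1%, and 39.1% of the 215) were also called in this difference, and for the rest the mural change was not shown to differ from the endothelial one. Gucy1a1 rose in mural cells and fell in endothelial cells (log2 fold changes 1.29 and −1.03, difference 2.20, adjusted p = 1.18e-07). Kitl had a change of −0.20 in endothelial cells, where it stood at 345 and 324 CPM in telogen and 310 and 291 CPM in the KO (adjusted p of the difference 2.5e-07). Sparcl1 (difference 1.61), Gjc1 (1.52), Aspn (3.79) and Hspb1 (1.47) lay above the endothelial change. Thy1 (−3.40), Ly6a (−3.01), Angpt2 (−2.33) and Ccl2 (−2.27) lay below it. Col3a1, Col1a1 and Col1a2 fell less in mural than in endothelial cells (differences 2.02, 2.14 and 2.53). Cdh5 was too low in Pecam1-negative mural cells for the test within them, at 125 and 43.1 CPM in telogen and 0 and 25.2 CPM in the KO. Its difference from the endothelial change was called (−2.84, adjusted p of the difference 0.00292), with 0 UMIs in KO S1.

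The third comparison asked what differed in Pecam1-negative mural cells between anagen and telogen, from 57 and 82 cells. The telogen libraries are those used above. Of 3252 genes tested, 1 was called (0.0308%), with 204 at an unadjusted p under 0.05 by edgeR. Cxcl2 was at 743 and 694 CPM in telogen and at 40.8 and 29.2 CPM in anagen (log2 fold change −4.30, SE 0.31, adjusted p = 0.0073), and DESeq2 called it as well. It was found in 25.6% of telogen and 8.77% of anagen cells, and 1 cell held 52.2% of its telogen and 46.7% of its anagen UMIs. In Pecam1-positive mural cells its log2 fold change was −0.08 (edgeR adjusted p = 0.941). The calls numbered 50 without anagen S2, 24 without telogen S2, 19 without telogen S1 and 5 without anagen S1, and Cxcl2 was among them each time. With at least 5 markers per cell, or without likely doublets, 0 genes were called. In endothelial cells Cxcl2 stood at 348 and 626 CPM in telogen and 378 and 298 CPM in anagen.

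The next genes by p did not pass. Tnfaip6, a hyaluronan-binding protein induced in inflammation, was at 857 and 809 CPM in telogen and 285 and 282 CPM in anagen (−1.52, SE 0.23, adjusted p = 0.454). Actg2 (smooth muscle gamma-actin, −2.54), Fabp5 (−1.77) and Ifi203 (−1.59) had lower values in anagen, and Cd14 (2.22), Ldhb (2.01), Ypel3 (1.70), Cirbp (1.49) and Pim1 (1.43) higher ones, each at an adjusted p of 0.749. List medians were 0.17 for 27 contractile genes, 0.32 for 22 pericyte genes, 0.57 for 5 Notch genes, 0.25 for 78 oxidative phosphorylation genes, 0.10 for 31 matrix genes and −0.36 for 16 chemokine genes, beside −0.01 for all genes. The 8 fibroblast markers tested had a median of 1.35, with 6 values above 0, and 0 were called. Cdh5 read 125 and 43.1 against 95.1 and 0 CPM (−0.59, adjusted p = 0.951), and Acvrl1 34.1 and 14.4 against 22.7 and 4.87 CPM.

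The difference between the mural and the endothelial change with stage was called for 50 of 12342 genes (0.405%), 25 in each direction, and 18 of them had more than 50% of their UMIs in 1 mural cell of a group. Ifi203 had a change of −1.59 in mural cells, which did not pass there, and of 0.80 in endothelial cells (difference −2.41, adjusted p = 1.17e-07). Il6, an inflammatory cytokine, had a difference of −2.21. Igfbp5 stood at 1351 and 1515 CPM in telogen and 1092 and 2385 CPM in anagen mural cells, while endothelial cells went from 327 and 356 to 129 and 61.6 CPM (difference 1.94). DESeq2 called 1 of the 50, and the count was 18 without telogen S1, 111 without anagen S1 and 100 without anagen S2.

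In Pecam1-positive mural cells, 12 of 7981 genes were called between anagen and telogen (0.15%), from 86 and 193 cells. Gdf15, a stress-induced TGF-beta family member, rose from 245 and 304 CPM to 619 and 729 CPM (log2 fold change 1.29, SE 0.17, adjusted p = 0.0187), and Plvap, the diaphragm protein of fenestrated endothelium, from 564 and 489 CPM to 1145 and 1024 CPM (1.06, SE 0.16, adjusted p = 0.0407). Rpl37, Rps21, Rpl36 and Rpl41 rose as well. Postn fell from 319 and 286 CPM to 112 and 82.5 CPM (−1.53, SE 0.22, adjusted p = 0.0253), and Gm12216 and 4 hemoglobin genes fell. The hemoglobin of telogen sat in 3 of 97 and 3 of 96 cells, which held 99.9% of it in either library, and 4 genes were called without them. Leaving out a library gave 48 to 87 calls.

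Between the KO and telogen, 65 of 6614 genes were called in Pecam1-positive mural cells (0.983%), 27 higher and 38 lower, from only 5 and 9 KO cells. Col3a1, Ccl2, Postn, Sparc, Cxcl12, Ifi27, Serpinh1 and Rbp7 were lower and Klf15, Rps27 and Rps27rt higher, as they were in Pecam1-negative cells, in which the same mice were compared. Col6a3, Pcolce, Col6a1 and Ndufa4 were also lower and Rpl9 higher in both mural groups. Some genes called in Pecam1-negative cells were not called here. Cxcl2 was at 240 and 195 against 25.1 and 748 CPM (log2 fold change 0.86), and Kitl (0.30) and Gucy1a1 (0.64) had smaller values. Sparc was at 5526 and 5305 CPM against 1056 and 1820 CPM (−2.08, SE 0.46, adjusted p = 0.045), and Myl9 at 664 and 894 against 176 and 163 CPM (−2.40, SE 0.47, adjusted p = 0.0263). Lcn2 (5.58) and Reln (6.91) rose mainly in KO S1, at 428 CPM each against 32.5 and 21.7 CPM in KO S2, with over 50% of their KO UMIs in 1 cell, and Reln is also a marker of lymphatic endothelium. The 4 hemoglobin genes fell here too. Without cells rich in hemoglobin the count was 37, without telogen S1 11, without telogen S2 14, without KO S2 530 and without KO S1 1166.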

How the data were processed

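Per the labels and the study's methods, libraries were made with 10x Chromium 3′ v3 chemistry from tdTomato+ cells sorted from dorsal skin, and the authors deposited raw UMI counts for 32285 genes from Cell Ranger 6.0.1 (mm10); Seurat 4.0 is also named in the submitters' processing notes. The filter of 200 to 5000 genes and under 10% mitochondrial UMIs follows the study. Counts were summed per library and population and shown as CPM (scaled to 1000000 UMIs). The members and gene lists were chosen with earlier results of these data known. Summed counts were tested with edgeR 4.0.16 (TMM, filterByExpr, quasi-likelihood F test, Benjamini-Hochberg over all genes tested), and a call needed an adjusted p below 0.05 and a fold change above 1.3; the scripts were tested on simulated data. The 8 rule genes, Ptprc and Pecam1 were not tested. Standard errors were the log2 fold change divided by the square root of F. Shares were compared with exact permutation tests over libraries. Genes named by rule were the 10 largest rises and falls among calls whose libraries did not overlap, called list members, and fixed genes. Ribosomal protein genes were left out of the largest rises. With fewer than 5 calls in a direction, the 5 of smallest p were named. Il6, Igfbp5, Jag1, Id1, Id3, S1pr3 and the genes named in Pecam1-positive cells were chosen after their values were seen. DESeq2 1.42.0, other normalizations, filters, marker numbers, doublet removal (Scrublet in scanpy 1.11.5), a replicate block and leaving out each library were alternatives. P-values measure the spread between these mice. Promoters are from RefSeq tables of GRCm38.p6. The result of 1 gene of the ion channel and calcium handling list is not reported here.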

Additional observations from a re-analysis of the deposited data

Results flagged for a closer look

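The change between KO and telogen differed between Pecam1-negative mural cells and endothelial cells of the same libraries for 215 genes, and that between anagen and telogen for 50. Among the genes named for their change in the KO, the mural change less the endothelial change on the log2 scale was −4.34 for Cxcl2 and −3.96 for Psmb10. The fitted value of −9.52 for Rbp7 depends on the prior count and gives no size, since both KO mural libraries held 0 UMIs of it, and the supported fall in mural cells is at least 11.9-fold. The difference was 4.49 for Slc25a27, 3.89 for Grap and 2.63 for Galnt15. Slc25a27 and Grap had only 1 and 2 telogen UMIs in mural cells, so their values give no size. For the collagens, which fell in both populations, it was 2.53 for Col1a2, 2.14 for Col1a1 and 2.02 for Col3a1. Between anagen and telogen it was −4.06 for Cxcl2. Outside the cells analysed, 78 barcodes had at least 4 of the 8 mural genes and no Ptprc but exceeded the mitochondrial limit, and 6 kept cells met the mural markers but had a Ptprc UMI. Outliers were not sought, since each group held 2 mice.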

How the results depend on the processing

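In Pecam1-negative mural cells the 418 KO calls became 691 with at least 3 markers, 247 with at least 5, 162 by DESeq2, 61 with equal cells and depth and 58 under the stricter cell filter, and leaving out 1 mouse gave 194 to 581. The stage call (1) became 0 with at least 3 or 5 markers, equal cells and depth, no endothelial UMIs, the rule at 1500 UMIs, no likely doublets or no cells of 5 or more fibroblast markers (added after seeing the data), 5 with both Pecam1 groups together and 69 with no filter on low counts, and leaving out 1 mouse gave 5 to 50. In Pecam1-positive cells the 12 stage calls became 29 by DESeq2, 159 with no filter, 4 without hemoglobin-rich cells (added likewise) and 48 to 87 without 1 mouse. The 65 KO calls there became 303, 333, 37 and 11 to 1166 in that order. The 50 stage differences from endothelial cells became 1 by DESeq2, 18 with no endothelial UMIs and 18 to 111 without 1 mouse, and the 215 KO differences 51, 128 and 98 to 227. The KO difference in share became 1.17 points, the reverse sign, for Pecam1-negative cells only, and the differences ranged from −1.80 to −0.21 points (KO) and from −2.56 to −1.38 (anagen) without 1 mouse. Signs reversed for Actg2 between stages with at least 3 markers (0.81) and for Cdh5 without telogen replicate 1 (0.19) or anagen replicate 2 (0.39), and Cdh5 was at −7.45 without anagen replicate 1, where the remaining anagen library had 0 UMIs. Of the values of genes named for the KO under all alternatives, 1324 kept side and sign and 429 kept their sign but lost the call. The cause was not tested, except that fewer cells or markers leave fewer genes tested.

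Replicate numbers did not pair the mice: deviations of same-numbered libraries correlated at −0.11 (KO and telogen) and 0.02 (anagen and telogen) in Pecam1-negative cells and −0.03 in Pecam1-positive cells for either comparison. With a replicate block the calls numbered 283 (KO) and 0 (anagen) in Pecam1-negative cells and 56 and 112 in Pecam1-positive cells, and the crossed block for the KO, added after seeing the data, gave 569. The stricter cell filter was not run for anagen, where too few cells remained. Between 5 and 97 cells per library limit every gene comparison.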
